A study of Mus musculus with 8 samples.

Results

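Axon guidance ligands and receptors are the secreted and membrane proteins that steer growing axons and that later act at synapses. Semaphorins (Sema) signal through plexins (Plxn), with neuropilins (Nrp) as coreceptors for the secreted class 3 members. Ephrins (Efn) are membrane-bound ligands of the Eph receptor tyrosine kinases, and Slit proteins bind Robo receptors. Some netrins (Ntn) bind receptors that include the Unc5 family. The members were all genes in the deposited expression tables whose symbol is 1 of these 9 stems followed by a digit, or by a letter and a digit, or Unc5a to Unc5d, with an FPKM of at least 0.5 in at least 1 group. FPKM counts fragments per transcript length and library size, so levels of different genes can be compared per length. There were 62 such genes of 15794 in the tables, 33 ligands and 29 receptors or coreceptors. Ephx1, Ephx2, Ephx4 and Unc50 match the letters but are epoxide hydrolases and a Golgi protein gene, and these 4 were left out. Epha2, Ntn5 and Sema3f lay below 0.5 FPKM in every group. The lowest member inside that limit was Efna4, at 0.642 FPKM in its highest group, and the highest gene outside it was Epha2, at 0.432. In the deposited tables of cassette exons, 6 of 682 entries carried a member's symbol, for 3 different exons in Sema6d, Robo2 and Unc5b.

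RNA-seq was measured in mouse hippocampal neuron cultures at 14 days in vitro (DIV), in 8 samples, 2 in each of 4 groups. Every group received adeno-associated virus AAV2/9 with a synapsin promoter (SynI), which drives expression in neurons, at 9 DIV, and siRNA from 10 DIV for 4 days. Controls expressed EGFP with non-targeting siRNA. The knockdown also expressed EGFP, with siRNA against Rbfox1 and Rbfox3, which encode RNA-binding proteins that regulate neuronal splicing. The rescue groups carried the same pair of siRNAs and Flag-Rbfox1_C_siMt or Flag-Rbfox1_N_siMt, the cytoplasmic and the nuclear splice isoform of Rbfox1. The labels give no strain or age of the animals. The authors deposited 1 value per group, so no spread between samples can be given, and sequencing depth per sample is unknown.

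Every log2 fold change and q below is from the authors' deposited table of that comparison, and called means a deposited q below 0.05. The deposited q followed p across the tables, as if adjusted over comparisons together and not within each table. Efnb3 in the knockdown and Rbfox2 in the nuclear rescue, with nearly equal p, both had q = 1.72e-09 in the authors' deposited tables. A call is thus not a false discovery rate within its own comparison. Where adjustment within 1 table alone changed a member's call, this is stated. The value after ± is the error that the authors' own test implies, obtained from each fold change and its test statistic, and no spread between samples was measured. Rbfox1 stood at 25.7 FPKM in control, 1.94 in the knockdown, 16.1 in the cytoplasmic and 38.2 in the nuclear rescue. Rbfox3 stood at 12.4, 1.59, 1.59 and 1.53 FPKM in the same order. The amount of Rbfox1 RNA therefore differed between the rescues together with the isoform. Rbfox2, another family member, stood at 35.4 FPKM in control, 42.1 in the knockdown, 33.2 in the cytoplasmic and 17.7 in the nuclear rescue, where it fell (q = 1.72e-09 in the authors' deposited table). The part of either difference in the members' values was not tested. Markers of several cell types were present. Astrocyte markers (12 of 12 at 0.5 FPKM or more) summed to 1441 to 1597 FPKM over the groups. Oligodendrocyte lineage markers (14 of 15) summed to 286.5 to 314.1, and neuron markers (16 of 17) to 2298 to 2465. Vascular and fibroblast markers (7 of 13) summed to 92.2 to 112. These 7 include no endothelial marker: Cdh5, Cldn5, Flt1 and Tek were not listed, and Kdr and Pecam1 lay below 0.5 FPKM. Microglia markers (8 of 13) summed to 26.1 FPKM in control, 17.2 in the knockdown, 19.8 in the cytoplasmic and 16.3 in the nuclear rescue, and none of the markers counted in these lists was at 0 in any group. In such mixed bulk RNA, fewer cells of a type and less RNA per cell cannot be told apart.

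The exons that carry the splicing result were read from GENCODE M21 transcripts, matched by gene and by the lengths of the exon and of both its neighbours, and each lies wholly within the coding sequence. They are shown 5′ to 3′ in the direction of transcription. None of the 3 exons holds GCATG, the DNA form of the motif that Rbfox proteins bind in RNA. The introns beside them were not searched, so nothing is said of sites there. All 3 exons are a whole number of codons long, 19 in Sema6d, 42 in Robo2 and 11 in Unc5b. Each can thus be skipped without a shift of the reading frame. Positions are those of the deposited tables, in mm9.
Sema6d exon, chr2:124486441-124486497, plus strand: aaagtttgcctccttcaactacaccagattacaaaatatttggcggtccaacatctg
Robo2 exon, chr16:73933291-73933416, minus strand: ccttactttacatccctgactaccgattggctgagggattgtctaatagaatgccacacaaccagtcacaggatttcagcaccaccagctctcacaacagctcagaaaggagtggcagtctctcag
Unc5b exon, chr10:60239933-60239965, minus strand: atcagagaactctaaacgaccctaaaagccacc

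In the control cultures the members spanned 0.284 to 76.5 FPKM, with a median of 4.22 against 8.63 over the 13726 genes with at least 0.5 FPKM in a group. Epha4, a receptor that binds both A and B ephrins, was the highest, at 76.5 FPKM, followed by the coreceptor Nrp1 at 52.2. The ephrin Efna3 (29.8), the transmembrane semaphorin Sema6b (26.3), Efnb3 (22.5), Nrp2 (22.3), the secreted semaphorin Sema3e (20.7) and the plexin Plxna4 (20.6) followed. All 3 Slit genes were present at 8.02 to 13.1 FPKM, and their receptors Robo1 and Robo2 at 2.74 and 6.36. Netrin 1 (Ntn1) stood at 3.14 FPKM and its receptors Unc5a, Unc5b, Unc5c and Unc5d at 8.31, 4.16, 9.36 and 2.21. Among A-type Eph receptors Epha4, Epha7, Epha6 and Epha5 exceeded 10 FPKM, whereas among the B-type receptors Ephb6 (17.4) and Ephb2 (10.4) did.

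**Figure D1:**
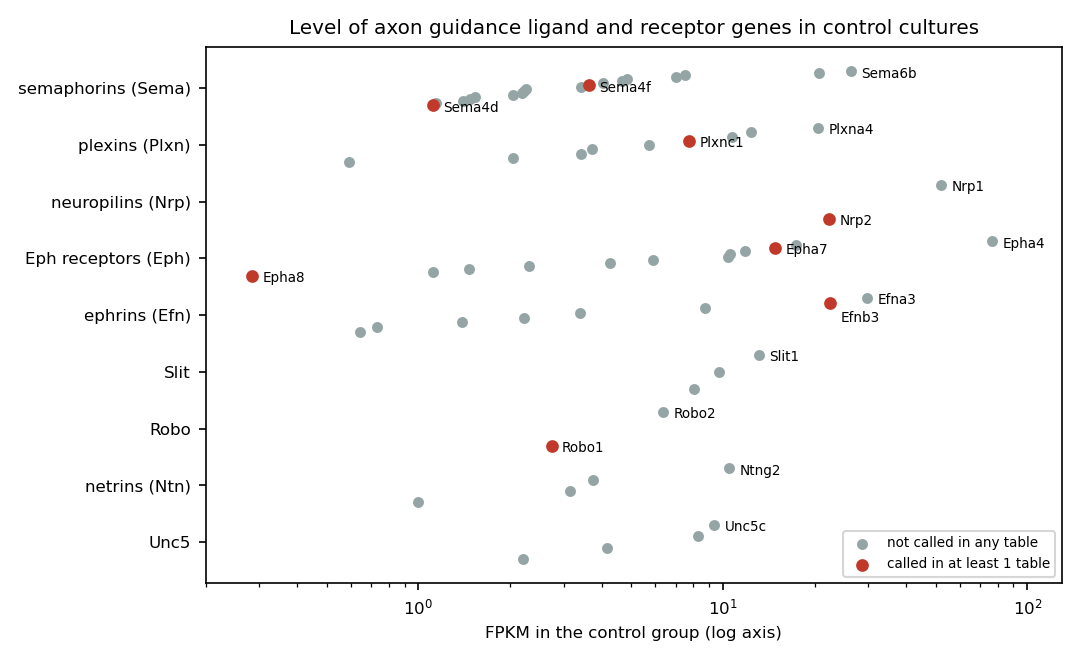
Control-group FPKM (log axis) of the 62 members, 1 point per gene, in rows by family, with red points for genes called in at least 1 of the 3 tables. The 8 red points are spread over levels from 0.284 FPKM (Epha8) to 22.5 (Efnb3), and the 2 highest genes, Epha4 at 76.5 and Nrp1 at 52.2, are grey.

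With siRNA against Rbfox1 and Rbfox3, 6 of the 62 members rose and 1 fell. The 6 that rose were the ligands Efnb3 and Sema4d and the receptors Nrp2, Plxnc1, Robo1 and Epha8, and the Eph receptor Epha7 fell. Over all genes with at least 0.5 FPKM, 2.55% were called in this comparison, 0.863% higher and 1.68% lower, while 11.3% of the members were called. Epha8 entered the list only through groups where it was higher, and with a minimum of 1 FPKM the calls were 6. The median log2 fold change of the members was 0.04, against 0.03 over all these genes, with 37 members above 0 and 25 below, and 7724 of all genes above and 5854 below. Of 16 neuron markers 12 lay below 0 in this comparison, with a median of -0.21, and 3 fell (among them Rbfox3, the siRNA target) and 1 rose. Of 8 microglia markers all lay below 0, with a median of -0.76, and 3 fell. The part of these shifts in the members' values was not tested. At an unadjusted p below 0.05 there were 13 members, where 11.2% of all genes passed.

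Efnb3 (chromosome 11, 69367594 to 69373739) encodes a transmembrane ephrin. It measured 22.5 FPKM in control, 44.0 in the knockdown, 28.0 in the cytoplasmic rescue and 38.2 in the nuclear rescue. The knockdown was the highest group, 196% of control, and the cytoplasmic rescue came nearest to control, at 125%. The rise in the knockdown was 0.97 ± 0.136 on the log2 scale (q = 1.72e-09 in the authors' deposited table). The other B ephrins did not pass: Efnb1 stood at 3.40 and 3.85 FPKM, and Efnb2 at 8.71 and 8.84. Of the 8 ephrins, Efnb3 alone was called in this comparison.

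Sema4d (chromosome 13, 51796617 to 51889013) encodes a transmembrane semaphorin that binds Plxnb1. It measured 1.12 FPKM in control, 1.89 in the knockdown, 1.23 in the cytoplasmic and 1.78 in the nuclear rescue. The order of the groups was that of Efnb3, with the knockdown highest and control lowest. The rise was 0.76 ± 0.183 (q = 0.00569 in the authors' deposited table). Plxnb1 itself stood at 3.73 and 3.95 FPKM in control and knockdown and was not called. Sema4d is also known from oligodendrocytes, and of 14 measured oligodendrocyte lineage markers 5 rose and 1 fell in the knockdown, Mbp going from 11.6 to 22.6 FPKM and Gpr17 from 8.60 to 4.12. The part of these cells in the Sema4d value was not tested.

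The neuropilins, coreceptors of class 3 semaphorins, were both higher in the knockdown, and Nrp2 passed. Nrp2 (chromosome 1, 62749891 to 62865266) measured 22.3 FPKM in control, 32.7 in the knockdown, 25.0 in the cytoplasmic and 32.9 in the nuclear rescue. The knockdown and the nuclear rescue lay together, at 147% and 148% of control, above the other groups. Its log2 fold change was 0.55 ± 0.159 (q = 0.0464 in the authors' deposited table), a call that did not hold at q 0.01. The locus overlaps that of 4930487H11Rik, and in libraries without strand information reads of overlapping genes cannot be told apart. Nrp1 measured 52.2, 70.5, 55.6 and 64.5 FPKM in the same order of groups, with a log2 fold change of 0.43 in the knockdown that did not pass (q = 0.365 in the authors' deposited table). None of the 5 class 3 semaphorins was called: their log2 fold changes ran from -0.26 (Sema3c) to 0.23 (Sema3a). Neuropilins are also known in vascular cells and fibroblasts. Of the 7 measured markers of that list, which include no endothelial marker, none was called. Of these, 4 had an unadjusted p below 0.05 and 6 lay above 0, with a median log2 fold change of 0.36. Their summed level was 92.2 FPKM in control and 112 in the knockdown. The part of such cells in the neuropilin values was not tested.

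Plxnc1 (chromosome 10, 94253612 to 94407212), the plexin that binds Sema7a, measured 7.74 FPKM in control, 10.6 in the knockdown, 8.53 in the cytoplasmic and 9.46 in the nuclear rescue. Control was the lowest group, and both rescues lay between it and the knockdown. Its log2 fold change was 0.46 ± 0.130 (q = 0.0425 in the authors' deposited table), also lost at q 0.01. Its ligand Sema7a, a membrane-anchored semaphorin, measured 7.00, 5.04, 6.60 and 6.69 FPKM in the same order, so that the knockdown was the lowest group and the rescues lay at 94.3% and 95.7% of control. The Sema7a log2 fold change was -0.47 ± 0.142 and did not pass (q = 0.0704 in the authors' deposited table), but passed when p was adjusted within this table alone (adjusted p = 0.0332). The other 8 plexins were not called, with log2 fold changes from -0.33 (Plxna4) to 0.33 (Plxnb3).

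Robo1 (chromosome 16, 72663394 to 73046345), a Slit receptor, measured 2.74 FPKM in control, 4.03 in the knockdown, 3.26 in the cytoplasmic and 4.03 in the nuclear rescue. Knockdown and nuclear rescue were at the same level, 147% of control. The rise was 0.56 ± 0.138 (q = 0.00767 in the authors' deposited table). Robo2, the other measured Slit receptor, stood at 6.36 and 6.72 FPKM and was not called. The ligand Slit3 measured 8.02 FPKM in control, 9.89 in the knockdown, 8.65 in the cytoplasmic and 10.6 in the nuclear rescue, with a log2 fold change of 0.30 in the knockdown that did not pass (q = 0.520 in the authors' deposited table). Slit1 stood at 13.1 and 13.2 FPKM and Slit2 at 9.68 and 9.97 in control and knockdown.

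Epha7 (chromosome 4, 28740295 to 28894649), an ephrin-A receptor, was the only member that fell. It measured 14.9 FPKM in control, 8.45 in the knockdown, 9.57 in the cytoplasmic and 9.23 in the nuclear rescue. The control group stood apart from the other 3, which lay at 56.8% to 64.4% of it. The log2 fold change was -0.82 ± 0.155 (q = 6.37e-05 in the authors' deposited table). Epha8 (chromosome 4, 136485334 to 136512731), another ephrin-A receptor, measured 0.284 FPKM in control, 0.561 in the knockdown, 0.417 in the cytoplasmic and 0.665 in the nuclear rescue. Its log2 fold change was 0.98 ± 0.245 (q = 0.00893 in the authors' deposited table). Epha8 lay under 0.5 FPKM in control. The other 10 Eph receptors were not called. Epha4 stood at 76.5 and 72.6 FPKM, Epha5 at 10.6 and 9.45, and Ephb2 at 10.4 and 10.2. None of the 4 measured netrins or of the 4 Unc5 receptors was called, the lowest p among them being that of the membrane-anchored netrin Ntng2, at 10.5 and 8.55 FPKM.

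**Figure D2:**
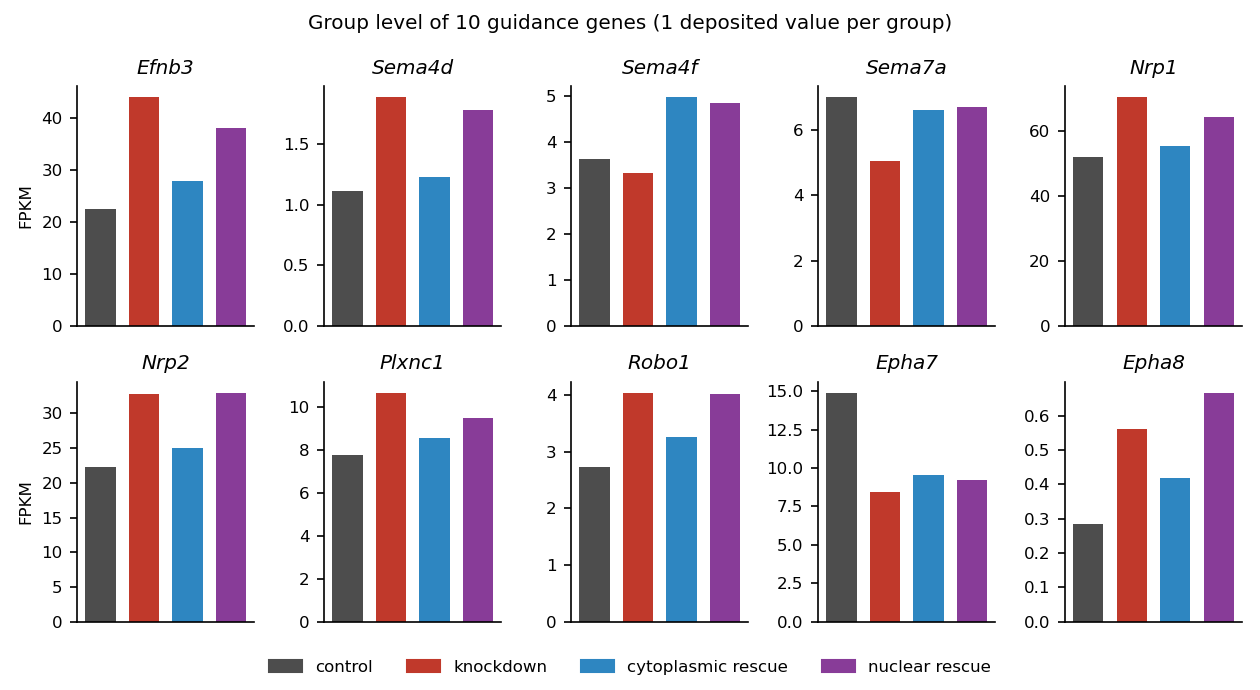
FPKM of 10 guidance genes in the control, knockdown, cytoplasmic rescue and nuclear rescue group, 1 deposited value per bar, each panel with its own axis from 0. The knockdown bar is the highest for Efnb3 (44.0 FPKM), Sema4d (1.89), Nrp1 (70.5), Plxnc1 (10.6) and, barely above the nuclear rescue, Robo1 (4.03). For Epha7 the 3 groups with Rbfox siRNA lie together below the control bar (14.9).

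In the cytoplasmic rescue, compared with the knockdown, Efnb3 and Sema4d fell and Sema4f rose, 3 of the 62 members or 4.84%. Over all genes 0.556% were called, 0.183% lower and 0.373% higher. This comparison shares the knockdown samples with the one above, so the fold changes of the tables are not independent. Efnb3 went from 44.0 to 28.0 FPKM, on the log2 scale -0.65 ± 0.149 (q = 0.00242 in the authors' deposited table). Sema4d went from 1.89 to 1.23 FPKM, on the log2 scale -0.62 ± 0.178 (q = 0.0477 in the authors' deposited table). The oligodendrocyte lineage markers summed to 305.8 FPKM in the knockdown and 286.6 in this rescue, 11 of 14 lay below 0, and none was called, with 3 at an unadjusted p below 0.05. The part of these cells in the Sema4d value was not tested here either. The calls of Sema4d and Sema4f were lost at q 0.01 and when p was adjusted within this table alone.

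The members' median log2 fold change was -0.12 in this comparison, against -0.06 over all genes, with 48 members below 0 and 14 above, and 9328 of all genes below and 4257 above. At an unadjusted p below 0.05 there were 12 members, with 5.63% of all genes. Nrp2 (32.7 and 25.0 FPKM), Robo1 (4.03 and 3.26), Plxnc1 (10.6 and 8.53), Nrp1 (70.5 and 55.6) and Epha8 (0.561 and 0.417) were lower in the rescue and did not pass. Epha7 stood at 8.45 and 9.57 FPKM. Other members with low p that did not pass were Sema6c, a transmembrane semaphorin, at 1.62 and 1.12 FPKM, Plxnb1 at 3.95 and 2.96, Efnb1 at 3.85 and 2.99, Ntng2 at 8.55 and 6.71 and Slit1 at 13.2 and 10.8. Sema7a, at 5.04 and 6.60 FPKM, was higher in the rescue and did not pass (q = 0.343 in the authors' deposited table).

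With the nuclear isoform 1 member of 62, 1.61%, was called, Sema4f, where 0.11% of all genes were called, 0.0659% higher and 0.0439% lower. The members' median log2 fold change was 0.0047, against -0.01 over all genes, with 34 members above 0 and 28 below, and 6044 of all genes above and 7540 below. At an unadjusted p below 0.05 there were 2 members, Sema4f and Sema7a, with 1.13% of all genes. Efnb3 stood at 44.0 and 38.2 FPKM, on the log2 scale -0.20 ± 0.160 that did not pass. Sema4d stood at 1.89 and 1.78 FPKM. Sema7a went from 5.04 to 6.69 FPKM, on the log2 scale 0.41 ± 0.146, and did not pass (q = 0.238 in the authors' deposited table). The next lowest p belonged to Epha3, an ephrin-A receptor, at 4.10 and 4.81 FPKM, and to Sema4b at 2.37 and 2.77, neither of which passed.

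Sema4f (chromosome 6, 82861879 to 82889744) encodes a class 4 transmembrane semaphorin. It measured 3.64 FPKM in control, 3.32 in the knockdown, 4.97 in the cytoplasmic and 4.84 in the nuclear rescue. Both rescues lay above control, at 137% and 133% of it, and the knockdown at 91.4%. It was not called in the knockdown, where its log2 fold change was -0.13 ± 0.154. It rose by 0.58 ± 0.155 with the cytoplasmic isoform (q = 0.0219 in the authors' deposited table) and by 0.54 ± 0.152 with the nuclear isoform (q = 0.0353 in the authors' deposited table). Both rescue tables share the knockdown value of 3.32 FPKM, and neither call held at q 0.01 or when p was adjusted within its table alone (adjusted p = 0.0534 and 0.359, from the p-values the authors deposited). No deposited table compares a rescue with control. Of the other class 4 members, Sema4d fell with the cytoplasmic isoform, and Sema4a, Sema4b, Sema4c and Sema4g were called in no table.

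**Figure D3:**
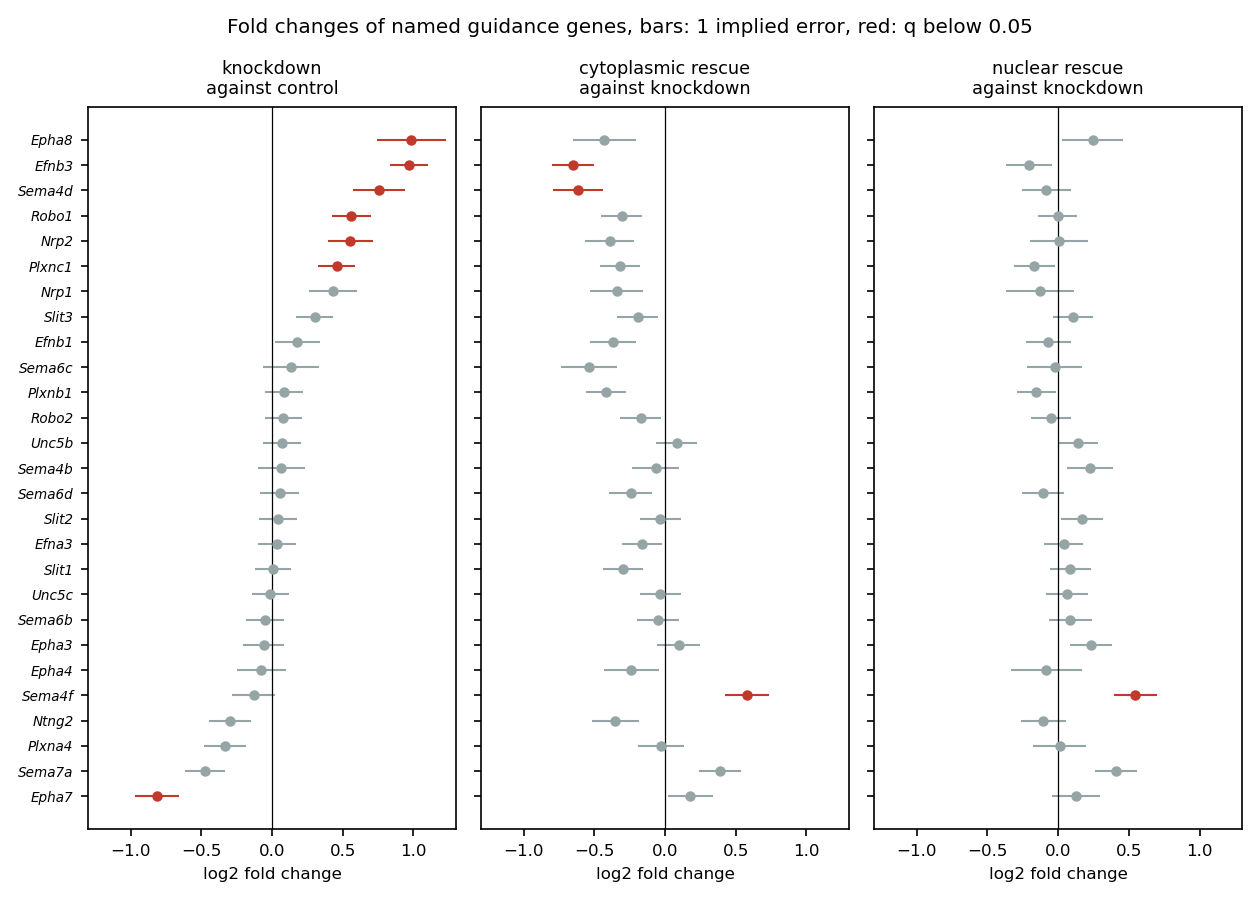
Deposited log2 fold changes of 27 named members in the 3 comparisons, with bars of 1 implied error and red points for q below 0.05. The order is that of the knockdown panel, from Epha8 (0.98) to Epha7 (-0.82), and the Sema4f point is red in both rescue panels (0.58 and 0.54), which share the knockdown samples.

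To compare the rescues with each other, a z test was run on nuclear minus cytoplasmic log2 fold changes. The squares of both implied errors were added, with Benjamini-Hochberg adjustment over all genes. Both fold changes share the knockdown value, whose error is thus counted in each, so the test is conservative. No member passed, with 0.0295% of all genes called, and 3 members had an unadjusted p below 0.05, where 0.877% of all genes did. These were Sema4d (nuclear minus cytoplasmic 0.54 ± 0.247), Epha8 (0.67 ± 0.311) and Efnb3 (0.45 ± 0.219). Epha8 reached 0.5 FPKM only in the knockdown (0.561) and the nuclear rescue (0.665), against 0.417 in the cytoplasmic rescue. It is a member only through those higher groups, so its difference here is no support. With the larger of the implied errors alone no member passed either, the lowest adjusted p being 0.578. In 50 of the 62 members, 80.6%, the value was higher with the nuclear isoform, against 64.9% of all genes, and the median difference was 0.14 against 0.04. For Sema4f the difference was -0.04 ± 0.217, and for Epha7 -0.05 ± 0.234. A difference that misses the threshold does not show that the isoforms act alike on these genes.

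The authors' deposited lists of cassette exons held 1 exon of each of 3 members, Sema6d, Robo2 and Unc5b, whose sequences are given above. The inclusion fraction is the authors' estimate of the share of transcripts that keep the exon. Junction reads are the reads that span the exon's 2 inclusion junctions or the skipping junction, summed by the authors over the libraries of a group, and the mean of the inclusion junctions was set against skipping by a two-sided Fisher's exact test, with p adjusted over every exon in the table. That test compares pooled libraries and does not measure the spread between samples. The lists hold only exons the authors kept, chosen from the same reads, so a pass is no independent support for a change.

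The 57 nt exon of Sema6d, a transmembrane semaphorin, went from an inclusion fraction of 0.503 in control to 0.369 in the knockdown. Its inclusion junctions held 57 and 14 reads and the skipping junction 30 in control, and 49, 11 and 47 in the knockdown, so the junction with the downstream exon was the weaker in both groups. By junction reads alone inclusion was 54.2% and 39.0%, and the difference did not pass (Fisher's exact adjusted p = 0.123, where 32.2% of the listed exons passed). With the nuclear isoform the same exon, between the same neighbours, went from 0.369 to 0.625, with 81, 33 and 34 reads in the rescue and 62.6% inclusion by reads. That difference passed (Fisher's exact adjusted p = 0.00806, where 53.1% of the listed exons passed). In the cytoplasmic table the exon is listed between another pair of neighbours, with an inclusion fraction of 0.534 in the knockdown and 0.639 in the rescue. There the reads were 44, 25 and 32 against 45, 37 and 28, and did not pass (Fisher's exact adjusted p = 0.460, where 22.0% of the listed exons passed). The Sema6d gene itself measured 7.50 FPKM in control, 7.78 in the knockdown, 6.57 in the cytoplasmic and 7.23 in the nuclear rescue and was called in no table.

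The 126 nt exon of the Slit receptor Robo2 passed the test on reads in both rescue tables. Its inclusion fraction was 0.109 in the knockdown, 0.226 in the cytoplasmic and 0.381 in the nuclear rescue. The inclusion junctions held 26 and 24 reads and the skipping junction 161 in the knockdown, 50, 49 and 121 in the cytoplasmic rescue, and 66, 61 and 113 in the nuclear rescue. Both inclusion junctions thus rose together and skipping reads fell in each rescue. Fisher's exact test passed in the cytoplasmic table (adjusted p = 0.00221) and in the nuclear table (adjusted p = 2.33e-06). The authors' fractions differ more between the isoforms than the shares of junction reads do, which were 29.0% in the cytoplasmic rescue and 36.0% in the nuclear one. Between the rescues the difference in reads did not pass (Fisher's exact adjusted p = 0.389). The authors' list for the knockdown against control does not hold this exon, and its value in control was not analysed here. Robo2 measured 6.36, 6.72, 5.96 and 6.49 FPKM in the 4 groups, in the order control, knockdown, cytoplasmic and nuclear rescue.

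The 33 nt exon of Unc5b, a netrin receptor, is listed for the cytoplasmic isoform alone, with an inclusion fraction of 0.641 in the knockdown and 0.763 in the rescue. The reads were 44 and 42 for inclusion and 28 for skipping, against 49, 71 and 22, and did not pass (Fisher's exact adjusted p = 0.210). Unc5b measured 4.16, 4.37, 4.62 and 4.81 FPKM in the 4 groups in the same order.

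**Figure D4:**
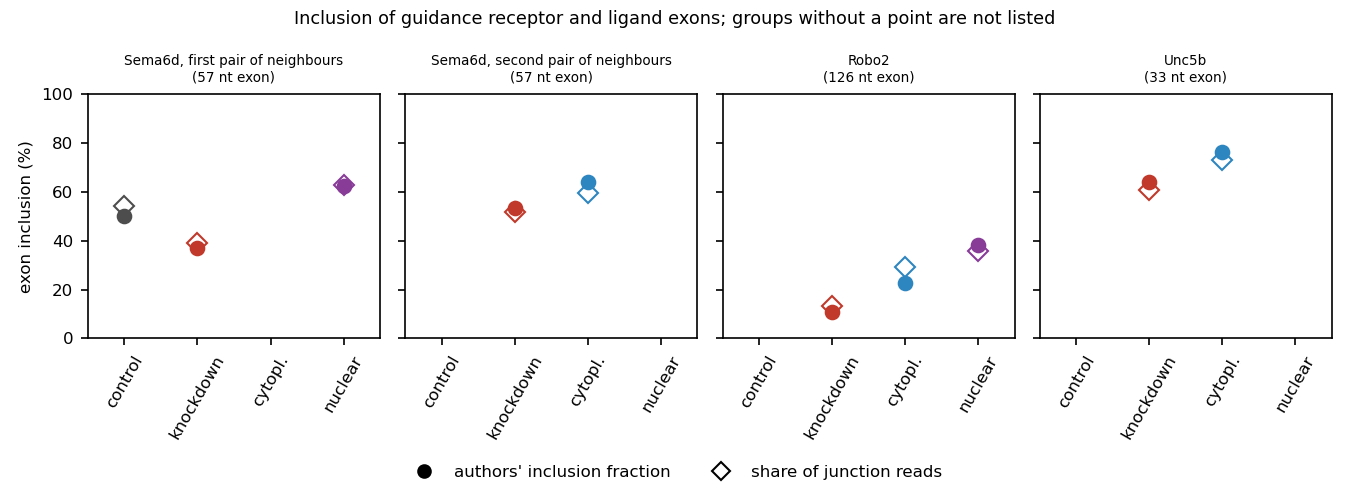
Inclusion in percent of the Sema6d, Robo2 and Unc5b exons in each group for which the authors list them, as filled circles for the authors' inclusion fraction and open diamonds for the share of junction reads. Robo2 climbs from knockdown to cytoplasmic to nuclear rescue by both measures, with reads at 13.4%, 29.0% and 36.0%, and Sema6d, between its first pair of neighbours, is lowest in the knockdown.

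Cytoplasmic Rbfox1 is known to bind 3′ UTRs, so GCATG was counted on the sense strand in the longest annotated 3′ UTR of each gene (GENCODE M21). All 62 members had one. The members held 0.989 matches per kilobase and 11657 genes with at least 0.5 FPKM held 0.983. A match was present in the 3′ UTR of 46 members (74.2%) and of 62.3% of all these genes, with a median 3′ UTR length of 1681 nt for members and 1248 nt for all. In the first 1000 nt after the stop codon, for genes with a 3′ UTR that long, 23 of 44 members (52.3%) and 60.6% of all 6698 genes held a match. The 8 called members held 0.812 matches per kilobase and the 54 uncalled ones 1.014, with a match in 75% and 74.1% of them. Robo1 and Plxnc1, both called in the knockdown, held none. Sites in Efnb3, Sema4d and Sema4f, the members called with the cytoplasmic isoform, are shown as examples of where the motif occurs in these transcripts. Another Efnb3 match, at 1013 nt, is not shown. Capitals mark GCATG, in 25 nt from the DNA form of the transcript.
Efnb3, site at 650 of 1768 nt: ccagctccagGCATGggcacagggc
Sema4d, site at 1239 of 1363 nt: ctcatcttctGCATGacatgatcta
Sema4f, site at 394 of 1606 nt: tctggggagcGCATGatccccggac
Sema4f, site at 979 of 1606 nt: tccatgtgtgGCATGtgtgcgtgcg
A match is a description of the sequence and not a measured binding site, and which 3′ UTR the cultured neurons use is not known.

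Genes that act beside the ligands and receptors were taken from 2 lists. Of 27 measured coreceptors and other cues 1 was called in the knockdown, with 2.55% of all genes, Cntn2, an axonal adhesion protein of the contactin family, which rose from 4.27 to 5.99 FPKM (q = 0.0211 in the authors' deposited table). The list's median log2 fold change was 0.06, and 21 of its genes lay above 0. Of 58 measured signalling genes 2 were called, where 2.55% of all genes were called, both higher in the knockdown: Dpysl5, a collapsin response mediator protein, from 7.17 to 10.7 FPKM (q = 0.00247), and Chn2, a chimaerin that inactivates Rac, from 7.92 to 11.9 (q = 0.00546, both in the authors' deposited table). That list had a median of 0.09, with 48 genes above 0, where 7724 of all genes lay above and 5854 below. In the rescues neither list had a called gene, against 0.556% and 0.11% of all genes, and at an unadjusted p below 0.05 there were 3 and 6 genes with the cytoplasmic and none with the nuclear isoform, where 5.63% and 1.13% of all genes passed. In the cytoplasmic rescue Chn2 stood at 9.38 FPKM and Dpysl5 at 10.3, and with the nuclear isoform at 10.7 and 10.2.

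The deposited lists of cassette exons held, for the genes of these lists, 6 entries in 5 genes in the knockdown, 4 in 3 genes with the cytoplasmic and 9 in 8 genes with the nuclear isoform. Junction reads passed for 1, 1 and 5 of them, where 32.2%, 22.0% and 53.1% of all listed exons passed. The exons named here were chosen after their values were seen. An exon of 63 nt of the kinase gene Pak3, an effector of Rac and Cdc42, went from 0.118 to 0.419 with the nuclear isoform (Fisher's exact adjusted p = 8.08e-18). One of 93 nt in Kalrn, a Rac activator, went from 0.216 to 0.493 (Fisher's exact adjusted p = 7.32e-19).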

How the data were processed

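Gene expression was given in deposited tables made by the authors with Cufflinks on mm9, per the submitters' processing notes, with 1 FPKM value per group (2 samples combined), a log2 fold change, a test statistic, a p-value and a q-value per gene. The log2 fold change column deposited by the authors is treated as a score, since it holds placeholder values where a group is at 0. The deposited splicing tables hold the authors' inclusion fraction, its difference and p-value, and counts of junction reads, only for exons the authors kept. Libraries were depleted of ribosomal RNA and read as paired ends of 50 nt without strand information, per the labels. The 36 value columns not used here stayed out of every step.

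Computed here were the implied errors, the z test between the rescues with Benjamini-Hochberg adjustment over all genes, and Fisher's exact tests on junction reads, with Python 3.11.15, pandas 2.3.3 and scipy 1.17.1, tested on simulated data. Genes needed 0.5 FPKM in a group. The members and the gene lists were chosen with earlier results of these data known. The rule for named genes took called members, those with a listed exon, the 12 with the lowest p in the knockdown table, the 8 lowest in each rescue table and the highest of each family. No label states that a group's samples are separate cultures, and p-values may then reflect technical spread alone. Group values allow no spread between samples, and depth per sample is unknown. Some items are not reported here.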

Additional observations from a re-analysis of the deposited data

How the results depend on the processing

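No paired analysis was possible because the tables hold 1 value per group, and for the same reason leaving out a sample could not be run. In the knockdown 7 members were called, and 3 reached a change of 0.5 on the log2(FPKM + 1) scale, which shrinks the change of low genes. In the cytoplasmic rescue 3 calls became 1 at q 0.01, 1 with p adjusted within the table and 1 on the log2(FPKM + 1) scale. In the nuclear rescue 1 call became 0 under each of these settings. Of the listed exons, the 1 of the knockdown table became 0 when junction reads were tested by Fisher's exact test, 0 with a change of at least 0.2 and 0 with the inclusion junctions summed. The 3 of the cytoplasmic table became 1, 0 and 1. The 2 of the nuclear table stayed 2 under each of these settings. Summing the junctions and keeping Unc50 with the Ephx genes were chosen after seeing the data. For single genes, centring on the median of all genes was run on the 27 named members only. Among these it reversed 6 uncalled fold changes near 0, by construction. They were Slit1 in the knockdown (-0.01925) and Robo1 in the nuclear rescue (0.01048). In the cytoplasmic rescue they were Plxna4 (0.02891), Sema6b (0.01222), Slit2 (0.02733) and Unc5c (0.02771).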
